A study of Mus musculus with 12 samples.

Results

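Chemokines are small secreted proteins that draw leukocytes towards their source by binding receptors of the G protein-coupled class, and they are named CC, CXC, CX3C or XC for the spacing of their conserved cysteines. The 43 genes described here are 29 ligands (16 CC, 11 CXC and 2 of the CX3C and XC families) and 14 receptors (8 CC, 4 CXC and 2 of the CX3C and XC families), of 26228 gene symbols on the array. They were found by gene name among the spots of the mouse array, and 57 spots carry them. In lung, chemokines place alveolar macrophages, neutrophils, eosinophils and lymphocytes. In liver, Kupffer cells, sinusoidal endothelium and hepatocytes make several of them, and CXCL9 and CXCL10 are known as interferon-induced ligands of CXCR3.

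RNA of female B6C3F1/Nctr mice was hybridised to 12 Agilent 1-colour arrays, 3 in each of 4 groups. The groups are lung of mice given acrylamide at 0.7 mM, lung of controls at 0 mM, liver of mice given acrylamide at 0.7 mM and liver of controls at 0 mM. No group carries an engineered allele, and the controls are described as age-matched. The mice's age, and how and for how long they were exposed, are not stated in these sources. Acrylamide is a small reactive amide that the body turns into the epoxide glycidamide. Arrays go by tissue, treatment and title number below. The tissue entry says liver for all 12 arrays, whereas titles and source names say lung for 6. The mean log2 level of 10 alveolar type 2 cell genes minus that of 10 hepatocyte genes was 6.13 ± 0.53 on the arrays titled lung and -10.25 ± 1.02 on those titled liver (SD, n = 6 each, exact two-sided permutation test over 924 splits, p = 0.00216), so the titles were followed.

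Levels below are scaled intensities, with the 75th percentile of each array set to 1000, and differences are in log2 units. Levels of different genes are not set against each other, since their probes differ. A spot was above background where it passed the 95th percentile of the negative controls on that array. The unscaled 75th percentile was 839.4 to 1376 on lung arrays and 294.5 to 621.5 on liver arrays. Liver acrylamide 30 stood apart, with the lowest 75th percentile, a background limit of 16.77 before scaling against 2.35 to 4.45 on the other arrays, and 24 of 43 members above background. The other liver acrylamide arrays had 41 and 38 members above background, and the liver controls 37, 40 and 35. On the 6 lung arrays 42 or 43 members were above background. Acrylamide differences named in liver are therefore given with and without liver acrylamide 30.

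**Figure D1:**
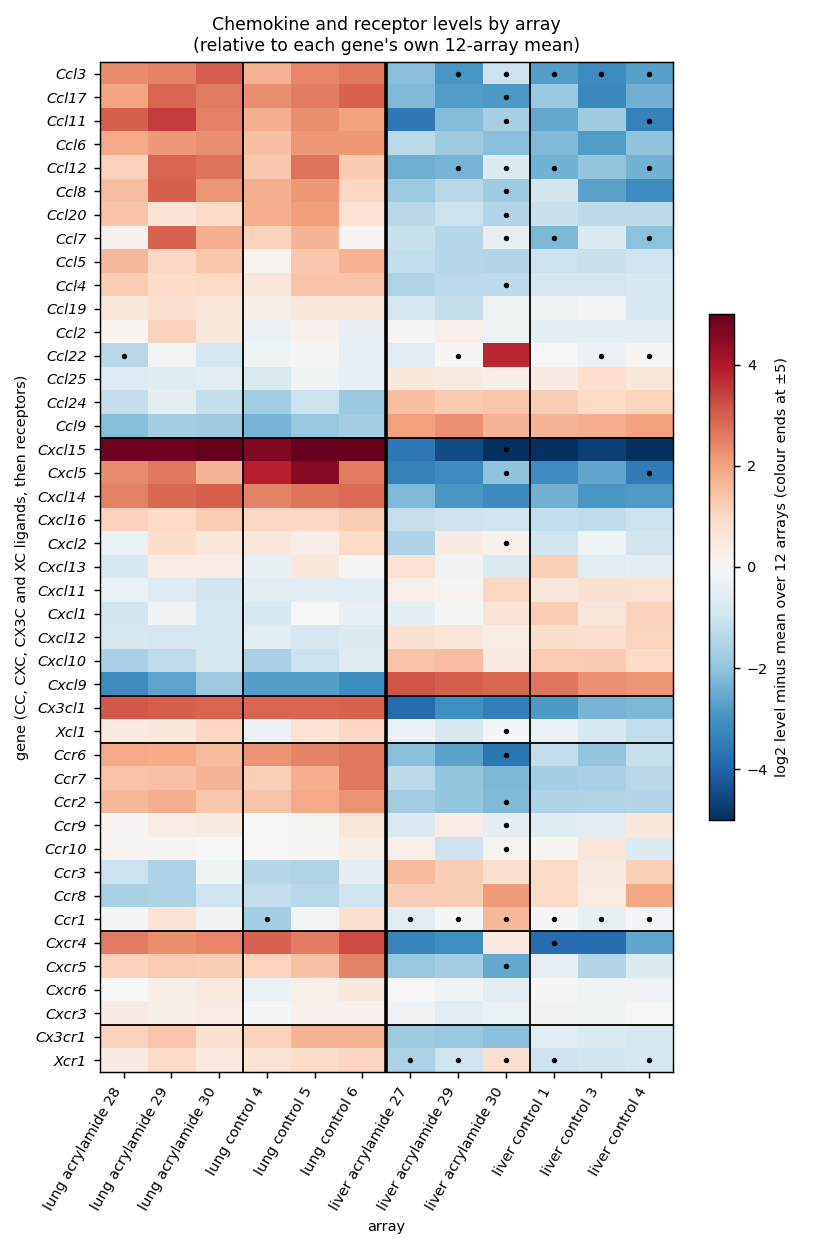
Log2 level of each of the 43 genes (rows, in families, ordered by the difference between tissues) on each of the 12 arrays (columns), minus that gene's mean over the 12 arrays. Black dots mark spots not above background, of which liver acrylamide 30 has 19. Cxcl15, Cxcl5 and Cx3cl1 are high on all 6 lung arrays, and Cxcl9 and Ccl9 are high on all 6 liver arrays.

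Most chemokine genes differed between lung and liver. In control mice 42 members could be tested with limma, and 25 were higher in lung and 10 lower at an adjusted p under 0.05. Of all 22426 genes tested, 32.0% were higher and 42.4% lower, so that 74.4% were called in all. The median difference was 1.89 over the members and -0.27 over all genes. At least 8-fold higher in lung were 14 members, against 9.40% of all genes. Among ligands 18 of 29 were higher and 8 lower, and among the 13 receptors tested 7 were higher and 2 lower. The number that opens each array's title was the same on all lung arrays and another on all liver arrays. It was read here as the slide, and the digits after it as row and column, though the titles do not name them so. On that reading, slide and tissue cannot be told apart. In whole tissue, fewer cells of a type and less RNA per cell cannot be told apart either.

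Of the CXC ligands, Cxcl15 (lungkine, a mouse chemokine known from lung epithelium) had the largest difference. It had 37351, 51686 and 53888 on lung control arrays, against 33.2, 59.6 and 25.4 on liver control arrays, a difference of 10.32 ± 0.34 (SE, n = 3 each, limma adjusted p = 1.37e-06). Cxcl5, a neutrophil chemoattractant of epithelial cells, had 1212, 1909 and 484 in lung controls, against 9.23, 13.3 and 7.23 in liver controls, where the last value was not above background. The difference was 6.76 ± 0.52, and lung control 6 held less than the other lung controls. Cxcl14, a ligand found in epithelia, had 3686, 4370.4 and 4665 in lung controls and 124, 88.8 and 93.2 in liver controls, a difference of 5.39 ± 0.18. Another Cxcl14 spot, on a predicted transcript, had 12.1 to 14.8 in lung controls and 36.6 to 45.6 in liver controls, so the 2 spots run in opposite directions. Cxcl16, the membrane-bound ligand of CXCR6, was higher in lung by 2.295 ± 0.135 and kept that direction at its other spot.

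The sequence just upstream of Cxcl15 is shown because this gene differed most. RefSeq promoters (250 bases before the start site and 50 from it, build GRCm38.p6) were found for 31 of the 43 members. The Cxcl15 window lies at chr5:90794284-90794583 on the plus strand, with capitals on the letters TATAAA at position -27 from the start site. TATAAA, searched on the gene's strand, is in 8.32% of all 32851 promoters of the table and in those of 9 of the 31 members.
Cxcl15: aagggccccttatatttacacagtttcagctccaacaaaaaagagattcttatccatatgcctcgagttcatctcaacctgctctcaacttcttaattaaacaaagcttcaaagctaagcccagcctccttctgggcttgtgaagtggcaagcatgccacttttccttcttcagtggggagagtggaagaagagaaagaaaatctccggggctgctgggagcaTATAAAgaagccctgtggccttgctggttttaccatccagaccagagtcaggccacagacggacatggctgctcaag

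The CXC ligands that were higher in liver include the ligands of CXCR3. Cxcl9 had 44.8, 44.8 and 34.7 in lung controls, against 1922, 1480.2 and 1376 in liver controls, so lung was 38.3-fold lower (-5.26 ± 0.19, adjusted p = 1.98e-06). Cxcl10 had 117, 170.2 and 233 in lung controls and 858, 889 and 711 in liver controls (-2.29 ± 0.27). Both genes had liver controls above every lung control. Cxcl11, the third ligand of CXCR3, differed by -1.22 ± 0.13 at a very bright spot, and by -0.31 (adjusted p = 0.0387) under quantile scaling. Before scaling that spot had 190766, 183907 and 217525 in lung controls and 181560, 192674 and 181414 in liver controls. Those unscaled values overlap, while the unscaled 75th percentile was 1047 to 1214 on lung controls and 424 to 482 on liver controls. The size of the scaled difference therefore depends on how the arrays are scaled, and whether the spot was saturated was not tested. Its other spot, at 7317 to 15258 over the 12 arrays, was also lower in lung. Cxcl12, the ligand of CXCR4 and a stromal retention signal, had 16470.3, 13387 and 14646 in lung controls, against 43688, 41903 and 50860.5 in liver controls (-1.62 ± 0.15). Quantile scaling gave -0.94 for Cxcl12, and a second spot, for another transcript, differed by -3.45.

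The promoters of Cxcl9 and Cxcl10 are shown because these neighbours, 20.81 kilobases apart on chromosome 5, ran together. They lie at chr5:92328030-92328329 and chr5:92348840-92349139, both on the minus strand and printed along the gene. Capitals mark the consensus of the factor NF-kappa B, searched on both strands. The Cxcl10 window holds 3 matches, 2 of them overlapping, whereas the Cxcl9 window holds none. Of all promoters 8.46% hold the consensus, and of the 31 members' promoters 8 do.
Cxcl9: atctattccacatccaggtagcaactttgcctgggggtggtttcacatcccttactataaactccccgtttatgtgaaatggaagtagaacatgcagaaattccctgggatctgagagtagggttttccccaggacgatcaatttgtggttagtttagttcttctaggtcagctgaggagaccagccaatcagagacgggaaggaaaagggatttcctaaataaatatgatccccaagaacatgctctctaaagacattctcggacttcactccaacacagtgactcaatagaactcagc
Cxcl10: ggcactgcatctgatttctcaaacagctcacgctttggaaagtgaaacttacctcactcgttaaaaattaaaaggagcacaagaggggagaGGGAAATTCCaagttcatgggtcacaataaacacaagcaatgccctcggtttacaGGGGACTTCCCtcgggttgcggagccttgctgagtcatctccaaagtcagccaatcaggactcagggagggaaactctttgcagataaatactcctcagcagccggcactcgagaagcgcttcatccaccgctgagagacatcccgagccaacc

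Cxcl1 and Cxcl2, ligands of the neutrophil receptor CXCR2, had opposite directions. Cxcl1 had 562, 959.9 and 713 in lung controls and 2315, 1446 and 2126 in liver controls (-1.40 ± 0.27, adjusted p = 0.00315). Cxcl2 was low in both tissues, with 24.3, 20.2 and 32.4 in lung controls and 8.24, 14.1 and 8.54 in liver controls (1.33 ± 0.28, adjusted p = 0.0047). The Cxcl2 direction turned to -0.17 (adjusted p = 0.292) when 16 was added to each intensity before the log. That addition, made before scaling, itself moves genes dim in both tissues lower in lung. Cxcl2 was above background on all 3 control arrays of each tissue, with scaled background limits of 5.61 to 7.87 on the liver controls. Their start sites are 12.65 kilobases apart on chromosome 5, and the promoters, aligned end to end, were 53.64% identical, the second highest of 465 member pairs (median 45.54%). They are shown because, with these unlike differences, each holds the run GGGAATTTCCC on the gene's strand, made of 2 overlapping matches to the kappa B consensus and marked by capitals. The run was read from these 2 promoters, so their holding it was given in advance. Of all promoters, 0.0426% hold it on either strand. The windows are chr5:90890995-90891294 and chr5:90903649-90903948, both on the plus strand.
Cxcl1: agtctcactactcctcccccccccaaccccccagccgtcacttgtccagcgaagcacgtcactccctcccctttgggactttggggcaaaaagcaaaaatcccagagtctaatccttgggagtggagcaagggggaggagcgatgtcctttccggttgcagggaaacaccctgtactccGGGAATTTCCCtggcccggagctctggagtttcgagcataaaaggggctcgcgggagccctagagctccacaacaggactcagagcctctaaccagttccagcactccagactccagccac
Cxcl2: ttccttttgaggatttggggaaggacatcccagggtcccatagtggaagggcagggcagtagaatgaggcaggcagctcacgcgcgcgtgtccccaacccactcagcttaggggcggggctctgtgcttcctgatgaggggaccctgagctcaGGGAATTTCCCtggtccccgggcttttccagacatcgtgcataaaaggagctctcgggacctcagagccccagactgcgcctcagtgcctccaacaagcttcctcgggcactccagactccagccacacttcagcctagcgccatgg

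**Figure D2:**
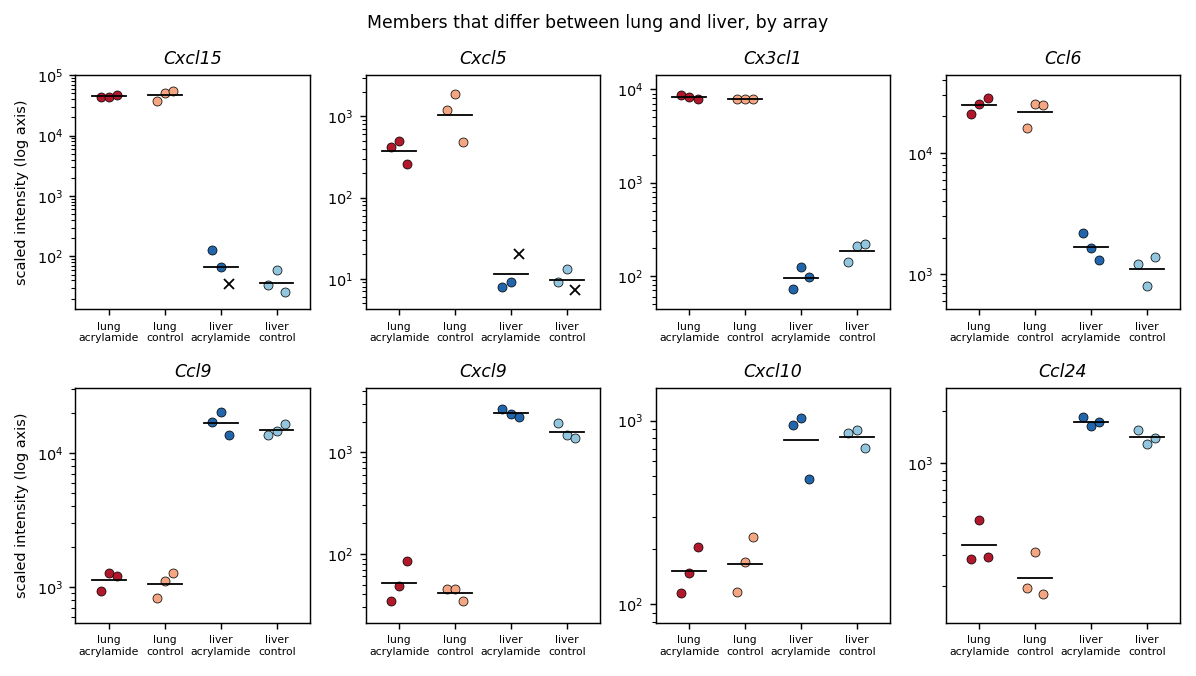
Scaled intensity (log axis, 75th percentile of each array = 1000) of 8 ligands in the 4 groups, with a point per array, a cross for a spot not above background and a line at the mean of the log2 values. Cxcl15, Cxcl5, Cx3cl1 and Ccl6 lie higher in lung, and Ccl9, Cxcl9, Cxcl10 and Ccl24 higher in liver, without overlap between the tissues.

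Of the 16 CC ligands, 11 were higher in lung and 3 lower. Ccl3 (MIP-1 alpha, a ligand of CCR1) had 143, 227 and 265 in lung controls and was not above background on any liver control array. Its difference was 5.15 ± 0.27 (limma adjusted p = 7.87e-06), and 30.9-fold with its liver values raised to the lowest intensity above background. With 16 added to each intensity it was 2.44, so its size depends on how background is treated. Ccl17, a CCR4 ligand of dendritic cells, had 711, 824 and 1078 in lung controls and 38.5, 15.1 and 26.7 in liver controls (5.10 ± 0.36). Ccl11 (eotaxin, the main eosinophil attractant acting through CCR3) had 202, 299 and 241 in lung controls, against 10.05, 17.5 and 5.63 in liver controls, the last not above background (4.62 ± 0.41). Each of these 3 ligands had its lowest lung control above its highest liver control. The monocyte and eosinophil attractants Ccl12, Ccl8 and Ccl7 were also higher in lung, by 4.03, 3.91 and 2.64, at liver levels that were above background on 1, 3 and 1 of the 3 control arrays. With 16 added to each intensity the Ccl12, Ccl8 and Ccl7 differences were 1.52, 2.23 and 0.71, and Ccl7 no longer passed (adjusted p = 0.0629). Without liver control 1 that of Ccl8 was 4.57. The other CC ligands higher in lung were Ccl6 (4.28), Ccl20 (2.81, the ligand of CCR6), Ccl5 (2.15), Ccl4 (1.97) and Ccl19 (0.82, a ligand of CCR7).

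Ccl6 and Ccl9 are related CC chemokines encoded side by side, and they ran in opposite directions. Ccl6 had 15992, 25305 and 24971 in lung controls, against 1225, 801 and 1399 in liver controls (4.28 ± 0.28, adjusted p = 2.2e-05). Ccl9 had 829.6, 1113 and 1276 in lung controls and 13604, 14495 and 16612 in liver controls, so lung was 14.1-fold lower (-3.81 ± 0.20, adjusted p = 7.98e-06). Neither gene's tissues overlapped on any of the 12 arrays. Their start sites are 14.45 kilobases apart on the minus strand of chromosome 11, and the promoters are shown to set side by side a pair of neighbours with opposite levels. The windows are chr11:83593038-83593337 and chr11:83578587-83578886, and capitals mark their longest shared run, of 13 bases.
Ccl6: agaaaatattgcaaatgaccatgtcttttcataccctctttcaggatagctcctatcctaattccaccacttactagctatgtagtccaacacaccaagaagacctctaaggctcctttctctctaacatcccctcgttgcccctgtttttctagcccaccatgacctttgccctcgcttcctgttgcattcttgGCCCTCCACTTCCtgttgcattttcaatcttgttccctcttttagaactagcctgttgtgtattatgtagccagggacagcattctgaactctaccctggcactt
Ccl9: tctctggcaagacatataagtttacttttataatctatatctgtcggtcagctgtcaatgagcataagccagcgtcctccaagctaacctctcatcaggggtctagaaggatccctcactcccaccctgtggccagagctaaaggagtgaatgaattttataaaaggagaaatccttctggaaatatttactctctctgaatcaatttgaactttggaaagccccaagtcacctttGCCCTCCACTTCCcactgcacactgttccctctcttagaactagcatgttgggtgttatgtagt

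The other CC ligands lower in lung were Ccl24 and Ccl25. Ccl24 (eotaxin-2, which like Ccl11 acts on CCR3) had 194, 311 and 179.9 in lung controls and 1548, 1293 and 1397 in liver controls (-2.67 ± 0.23). The 2 eotaxins thus lay in opposite directions. Ccl25, a CCR9 ligand best known from gut and thymus, differed by -1.05 ± 0.19. Of the other families, Cx3cl1 (fractalkine, a membrane-bound ligand) had 7822, 7906 and 7985 in lung controls and 141, 210.0 and 219 in liver controls (5.41 ± 0.20, adjusted p = 2.09e-06). Xcl1 (lymphotactin) differed by 1.25 ± 0.40 (adjusted p = 0.0262), and its adjusted p was 0.0673 to 0.077 when liver control 3 or 4 or lung control 5 or 6 was left out.

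Among receptors, Cxcr4, the CXCL12 receptor of most leukocytes, had 713, 536 and 866 in lung controls and 6.48, 6.47 and 15.04 in liver controls, the first not above background (6.33 ± 0.38). At its second, dimmer spot Cxcr4 differed by 3.37. Ccr6, Ccr7 and Ccr2, found on B and T cells, on dendritic and naive T cells and on monocytes, were higher in lung by 3.90, 3.47 and 3.35. Cxcr5, the B cell receptor for CXCL13, was higher by 2.54, Cx3cr1, the fractalkine receptor of monocytes and resident macrophages, by 2.197 and Xcr1, of cross-presenting dendritic cells, by 1.80. Xcr1 was above background on 1 liver control array, and its difference turned to -0.13 (adjusted p = 0.346) with 16 added to each intensity. The receptors lower in lung were both dim. Ccr3 had 12.3, 11.6 and 23.0 in lung controls and 63.1, 44.3 and 74.9 in liver controls (-2.00 ± 0.33). Ccr8 had 13.9, 12.6 and 16.5 in lung controls and 62.8, 42.8 and 125 in liver controls (-2.29 ± 0.39). Both stayed without overlap between the control groups.

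Cxcr3, Cxcr6, Ccr9, Ccr10, Ccl2, Ccl22 and Cxcl13 did not pass the threshold in control mice, with differences of -0.19 to 0.42. Ccl22 and Cxcl13 were the ones with a difference below 0. Of these 7, Ccl22 and Ccr10 passed with 16 added to each intensity (-1.04 and -0.59, adjusted p = 8.95e-05 and 0.0053), and Cxcr3 under median scaling (0.48, adjusted p = 0.026). Adding 16 before scaling itself moves dim genes lower in lung, so the Ccl22 and Ccr10 calls cannot be read as lower levels there. Cxcr6 passed with the mean of its spots (0.63, adjusted p = 0.0382) and without lung control 4 (0.56, adjusted p = 0.0214), and Ccr9 without liver control 4 (0.78, adjusted p = 0.0254). Ccr1 was not tested there, being above background on 2 lung controls and no liver control. Cxcr6 differed by 0.32 ± 0.23 at the used spot and by 0.94 at its other spot.

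The tissue difference was repeated on the 6 acrylamide arrays, which hold other samples on the same slides as read from the titles. There 24 of 43 members were higher in lung and 9 lower, of 72.9% of all 22106 genes called (31.3% higher and 41.5% lower). Of the 35 members called in controls, 32 were called in the same direction in acrylamide mice (23 higher and 9 lower), and none in the opposite one. That is 91.4% of the members called in controls, against 86.9% of the 16689 genes called there. Cxcl15 differed by 9.39 ± 0.46, Cx3cl1 by 6.44 ± 0.21, Cxcl9 by -5.52 ± 0.34 and Ccl9 by -3.88 ± 0.20. The 3 members called only in controls were Cxcl1 (-0.72, adjusted p = 0.109), Cxcl2 (0.69, adjusted p = 0.345) and Xcr1 (1.22, adjusted p = 0.126). Xcr1 passed without liver acrylamide 30 (1.91, adjusted p = 0.00168). Cxcr3 passed in acrylamide mice (0.70 ± 0.12, adjusted p = 0.00314) and not in controls (0.28 ± 0.14, adjusted p = 0.123). Cxcr4 differed by 4.43 ± 1.04 in acrylamide mice and by 5.65 without liver acrylamide 30. Within slide row 1 it was 3.93 and did not pass (adjusted p = 0.0648).

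**Figure D3:**
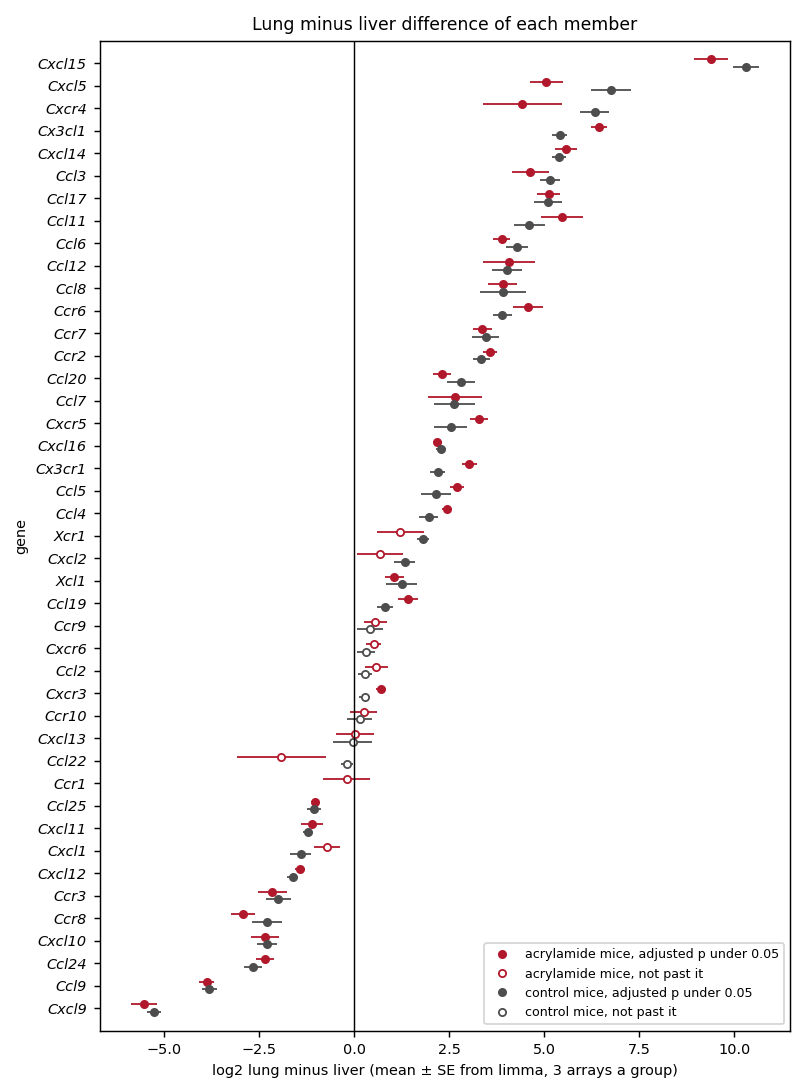
Lung minus liver difference (log2, ± SE from limma, 3 arrays a group) of each gene in acrylamide mice (red) and control mice (grey). Filled points passed an adjusted p of 0.05 and open points did not. Both sets of arrays place Cxcl15 at the top, at 9.39 and 10.32, and Cxcl9 at the bottom, at -5.52 and -5.26.

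The rest of the chemokine system was read from lists of further chemokines, other receptors, signalling genes and inducers. Of all genes tested in control mice, 32.0% were higher in lung and 42.4% lower, 74.4% in all, with a median of -0.27. Of 7 further chemokines tested, 5 were higher in control lung and 1 lower, and the median of the list was 3.66. Cxcl17, a mucosal chemokine, had 4541, 2749 and 1081 in lung controls and was not above background in liver controls, at 5.77, 4.69 and 5.90. Ppbp, a platelet chemokine, was higher by 5.79, and Ccl21a, the lymphoid ligand of CCR7, by 5.36. Ccl27a, a skin-type ligand of CCR10, differed by -1.53. Of 10 other receptors, 6 were higher and 2 lower (median 2.55), with the scavenging receptor Ackr3 at 4.70, Ccrl2 at 3.90, the neutrophil receptor Cxcr2 at 3.65, the scavenging receptor Ackr1 at -2.96 and the chemerin receptor Cmklr1 at -1.19.

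Of 32 signalling genes, 22 were higher in lung and 2 lower (median 1.48), against 32.0% and 42.4% of all genes. Those higher include Rgs18, a regulator of G protein signalling in platelets and myeloid cells (6.16), and the phosphoinositide kinase subunit Pik3r5 (3.77). Gnai3, a G protein subunit, differed by -0.66. Of 17 inducers tested, 10 were higher and 3 lower (median 1.02), with the NF-kappa B subunit Relb at 2.496, the cytokine Lta at 2.17 and the factor Irf8 at 1.88. The cytokines Il17a, Tnf and Il13 differed by -4.27, -3.16 and -2.56. Tnf had 129.5, 146 and 135 in lung controls and 1901, 666 and 1440.0 in liver controls.

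Lists of leukocyte markers were compared between the tissues too, and several were mixed. In control lung 12 of 15 T and NK cell genes tested were higher and 3 lower, and 5 of 9 B and plasma cell genes were higher and 2 lower. Higher and lower were 4 and 3 of 8 neutrophil genes, 3 and 4 of 8 dendritic cell genes and 2 and 1 of 6 monocyte genes. Of 7 eosinophil and mast cell genes 3 were higher and 0 lower. All 8 alveolar macrophage genes were higher. Of all genes tested, 32.0% were higher and 42.4% lower. The summed level of the 8 alveolar macrophage genes was 100276 to 140616 in lung controls and 7950.2 to 8771 in liver controls. Of 13 general macrophage genes, 2 were higher in lung and 7 lower, with sums of 46862 to 70487 in lung controls and 47728 to 61784 in liver controls. The part of cell numbers in the chemokine differences was not tested.

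Acrylamide was compared with control within each tissue. In liver none of 39 members tested passed the adjusted threshold in limma, of 0.00% of the 21076 genes tested. At an unadjusted p under 0.05 alone there were 9 members, against 6.12% of all genes. Of these, 1 was at least 1.5-fold higher and 5 were as much lower (together called the unadjusted rule), against 3.74% of all genes (1.69% higher and 2.05% lower). In 11 members the acrylamide and control arrays did not overlap (3 higher and 8 lower), against 12.2% of all genes (5.43% higher and 6.78% lower). The median difference was -0.05 over the members and -0.02 over all genes. Without liver acrylamide 30 no member passed either, and 11 of 38 members tested met the unadjusted rule (4 higher and 7 lower), against 9.04% of all genes.

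Receptors with non-overlapping arrays were lower in acrylamide livers. Cx3cr1 had 159, 146 and 128 in acrylamide livers, against 379, 330.4 and 317 in control livers (-1.25 ± 0.15, limma adjusted p = 0.518). All 3 acrylamide arrays held less than the lowest control. At its second, dimmer spot Cx3cr1 differed by -0.38, and at the used spot by -1.16 without liver acrylamide 30 (adjusted p = 0.103). Ccr6 had 49.99, 33.7 and 17.5 in acrylamide livers, the last not above background, and 92.3, 55.6 and 97.1 in control livers (-1.36 ± 0.43, adjusted p = 0.782). Cxcr5 had 27.5, 31.2 and 17.4 in acrylamide livers, the last not above background, and 76.2, 36.9 and 64.4 in control livers (-1.20 ± 0.35, adjusted p = 0.782). Both differences were -0.95 without liver acrylamide 30. Ccr2, at -0.46 ± 0.17 and at -0.34 without that array, also did not overlap. On liver acrylamide 30 it was not above background.

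Beside these receptors, the mean log2 level of 9 B and plasma cell genes was -3.17, -3.41 and -3.14 in acrylamide livers and -2.44, -3.18 and -2.41 in control livers. Of these 9, 8 had a difference below 0. The 13 macrophage genes had means of 1.87, 1.73 and 1.54 in acrylamide livers and 1.41, 1.01 and 1.47 in control livers, and 12 of 13 had a difference above 0. Of the dendritic cell genes 7 of 8 and of the T and NK cell genes 11 of 14 tested had one below 0. Below 0 were also 5 of 8 neutrophil genes, 4 of 6 monocyte genes and 1 of 6 eosinophil and mast cell genes. Over all genes tested, 11217 of 21076 had a difference below 0. In lung, too, 12 of the 13 macrophage genes had a difference above 0. The part of these lists in the receptor values was not tested.

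Of the ligands in liver, Cx3cl1, the partner of Cx3cr1, had 72.4, 124 and 96.5 in acrylamide livers, against 141, 210.0 and 219 in control livers (-0.97 ± 0.27, adjusted p = 0.782). Ccl4, Cxcl12 and Ccl5 were lower without overlap by -0.55, -0.36 and -0.29, with adjusted p of 0.782 each. Ccl4 was not above background on liver acrylamide 30. All 10 stellate cell and fibroblast genes also had a difference below 0, with a median of -0.26, and mean log2 levels of 0.76, 0.84 and 0.69 in acrylamide livers and 1.24, 1.27 and 1.06 in control livers. Below 0 were 5 of 10 endothelial genes, and 11217 of all 21076 genes tested. The part of the stellate cell and fibroblast genes in these ligand values was not tested. Higher without overlap were Cxcl9, Ccl2 and Ccl24. Cxcl9 had 2655, 2359 and 2217 in acrylamide livers and 1922, 1480.2 and 1376 in control livers (0.61 ± 0.18, adjusted p = 0.782). Ccl2 (MCP-1, the main monocyte attractant) had 503, 574 and 397 in acrylamide livers, against 350.5, 351 and 343 in control livers (0.48 ± 0.17, adjusted p = 0.782). Ccl24 had 1846, 1622 and 1717 in acrylamide livers and 1548, 1293 and 1397 in control livers (0.29 ± 0.14, adjusted p = 0.782). None of these 3 passed the adjusted threshold. Without liver acrylamide 30, Cx3cl1, Ccl4, Cxcl12 and Ccl5 differed by -0.98, -0.59, -0.25 and -0.25, and Cxcl9, Ccl2 and Ccl24 by 0.67, 0.63 and 0.30.

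Some ligands had overlapping arrays and are named after their values were seen. Cxcl1, whose promoter is shown above, had 704, 930.4 and 1499 in acrylamide livers, against 2315, 1446 and 2126 in control livers (-0.95 ± 0.33, adjusted p = 0.782). The highest Cxcl1 value in acrylamide livers, on liver acrylamide 30, lay just above the lowest control, and without that array the difference was -1.25 (adjusted p = 0.177). Ccl6 had 2191, 1639.8 and 1302 in acrylamide livers and 1225, 801 and 1399 in control livers (0.59 ± 0.29), and its neighbour Ccl9 differed by 0.17 ± 0.19. Without liver acrylamide 30 these were 0.77 and 0.32. Cxcl15 had 126, 67.8 and 35.3 in acrylamide livers, the last not above background, and 33.2, 59.6 and 25.4 in control livers (0.86 ± 0.53, and 1.33 without liver acrylamide 30). On the same arrays the mean log2 level of the 10 alveolar type 2 genes was -0.59, -1.12 and -2.07 in acrylamide livers and -2.68, -2.74 and -2.41 in control livers, and its part in the Cxcl15 values was not tested.

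Cxcr4 and Ccl22 had the largest positive liver differences, 1.45 ± 1.05 and 1.19 ± 1.096, each from 1 array. Cxcr4 had 9.33, 10.8 and 128 in acrylamide livers and 6.48, 6.47 and 15.04 in control livers, and at its second spot liver acrylamide 30 held 19.7, not above background. Without that array the Cxcr4 difference was 0.23. Ccl22, a CCR4 ligand, had 4.75, 7.15 and 93.5 in acrylamide livers and 6.66, 5.59 and 7.23 in control livers. The 93.5 was again on liver acrylamide 30, without which Ccl22 was not tested, too few arrays being above background. Ccl3, Ccl12, Ccr1 and Xcr1 were not tested in liver, and the other members had overlapping arrays.

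In lung none of 43 members passed the adjusted threshold in limma, of 0.00% of 22226 genes tested. At an unadjusted p under 0.05 there were 4 members, against 4.95% of all genes, and all 4 also reached 1.5-fold (2 higher and 2 lower), against 1.60% of all genes (0.666% higher and 0.931% lower). The arrays did not overlap for 3 members (2 higher and 1 lower), against 10.9% of all genes (4.11% higher and 6.80% lower). The median difference was -0.04 over the members and -0.01 over all genes. The count of 4 was 1 without lung acrylamide 30 and 2 without lung control 4.

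Ccl11 had 464, 671 and 335 in acrylamide lungs, against 202, 299 and 241 in control lungs (0.95 ± 0.28, adjusted p = 0.964). All acrylamide arrays lay above all controls. Row 1 of the lung slide gave 0.40 and row 2 gave 1.60. Cxcr3, the receptor of CXCL9 and CXCL10 on activated T cells, had 304, 273 and 291 in acrylamide lungs and 219, 263 and 265 in control lungs (0.22 ± 0.12, adjusted p = 0.999). Ccr6 had 811, 776 and 649 in acrylamide lungs, against 1032, 1205 and 1337 in control lungs (-0.67 ± 0.15, adjusted p = 0.96). It was the one member of 39 tested in both tissues whose arrays were lower without overlap in both, against 0.778% of 20312 genes, and row 1 and row 2 gave -0.73 and -0.60 in lung.

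Cxcl5 and Ccl2 met the unadjusted rule in lung with overlapping arrays. Cxcl5 had 416, 499 and 261 in acrylamide lungs and 1212, 1909 and 484 in control lungs (-1.46 ± 0.54, adjusted p = 0.999). Only lung control 6 reached into the acrylamide range. Ccl20, the ligand of CCR6, was likewise lowest on lung control 6 among the controls, with 145, 86.7 and 102 in acrylamide lungs and 193, 232 and 89.9 in control lungs (-0.55 ± 0.40). Ccl2 had 518, 1068 and 697 in acrylamide lungs, against 382, 555 and 362 in control lungs (0.78 ± 0.31, adjusted p = 0.999).

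The CC ligands related to Ccl2 were highest on lung acrylamide 29. Ccl7 had 34.7, 230.2 and 104 in acrylamide lungs and 65.4, 95.9 and 31.5 in control lungs. Ccl8 had 217, 589 and 339 in acrylamide lungs and 250.3, 335 and 152 in control lungs. Ccl12 had 64.9, 223 and 194 in acrylamide lungs, against 75.5, 195 and 73.4 in control lungs. Each of these 3 overlapped between the groups, with differences of 0.69, 0.59 and 0.46. Within row 1, which holds lung acrylamide 28 and 30 and control 5, they were -0.68, -0.31 and -0.80, and within row 2, which holds lung acrylamide 29 and controls 4 and 6, 2.34, 1.59 and 1.58. Ccl24 differed by 0.62 ± 0.30, by -0.11 in row 1 and by 1.34 in row 2.

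Ccr7 and Cxcr5 were highest on lung control 6. Ccr7 had 1920.2, 1925 and 2319 in acrylamide lungs and 1633, 2491 and 4403 in control lungs. Cxcr5 had 225, 249 and 243 in acrylamide lungs and 222, 281 and 574 in control lungs. Their differences, -0.35 ± 0.36 and -0.47 ± 0.35, were 0.02 and -0.07 without lung control 6. That array also had the highest means of the B and plasma cell list, -1.96, -1.78 and -1.81 in acrylamide lungs and -2.47, -1.46 and -1.23 in control lungs, and of the T and NK cell list, -0.50, -0.66 and -0.35 in acrylamide lungs and -1.12, -0.40 and -0.12 in control lungs. The part of lymphocyte RNA in these values was not tested. Ccr6 lay at -0.59 without lung control 6.

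**Figure D4:**
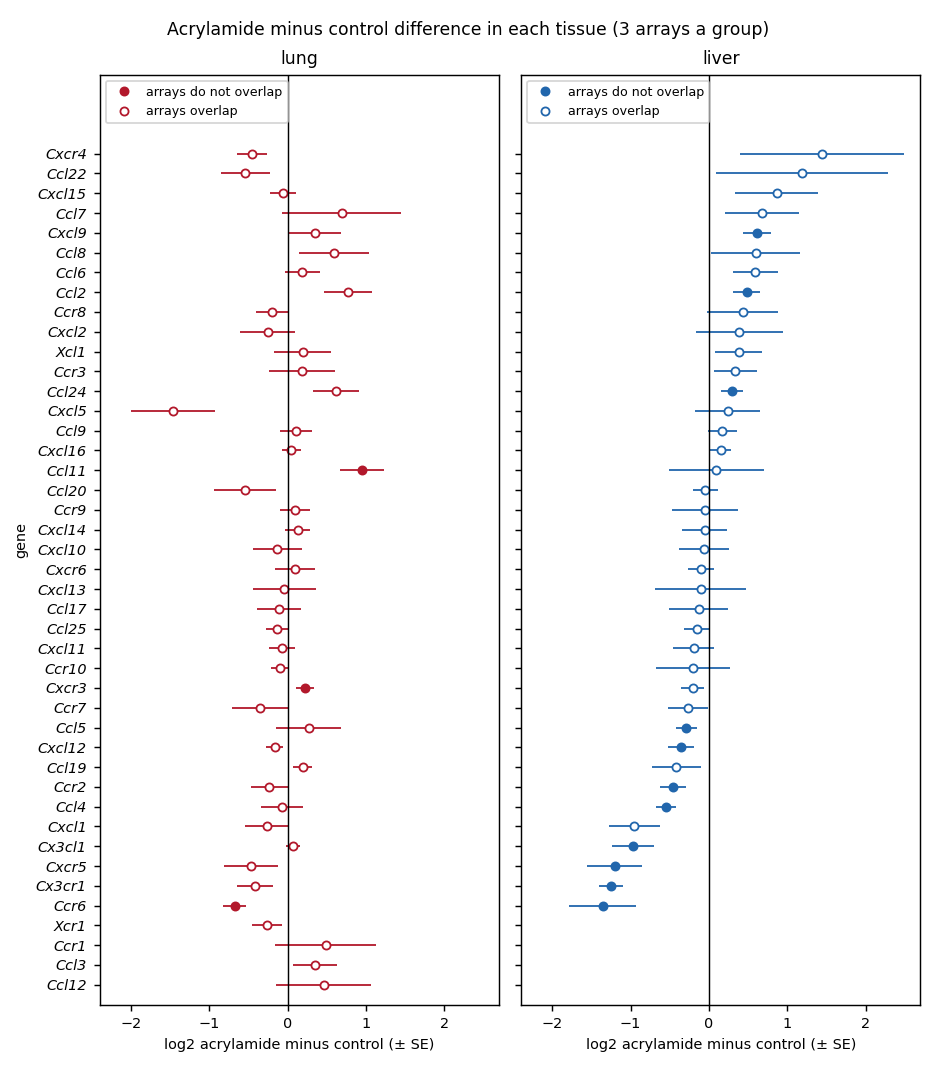
Acrylamide minus control difference (log2, ± SE from limma, 3 arrays a group) of each gene in lung (left) and liver (right), ordered by the liver value. Filled points are genes whose acrylamide and control arrays do not overlap, 3 in lung and 11 in liver. Ccr6 is filled on the left of 0 in both tissues, and no point passed the adjusted threshold.

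Whether the acrylamide difference was unlike in the 2 tissues was tested by the interaction over all 12 arrays. No member passed in limma, of 0.00% of 23283 genes, 4 of 43 had an unadjusted p under 0.05 (4.44% of all genes), and 3 met the unadjusted rule with a 1.5-fold difference, against 3.45% of all genes. Cx3cl1 had the highest value, 1.03 ± 0.30 (adjusted p = 0.994), with 8736, 8320.4 and 7822 in acrylamide lungs and 7822, 7906 and 7985 in control lungs beside the liver values above. Ccl11 followed at 0.85 ± 0.74, with 4.95, 13.1 and 18.5 in acrylamide livers, the last not above background, and 10.05, 17.5 and 5.63 in control livers. Cx3cr1, the receptor of Cx3cl1, lay at 0.83 ± 0.28 (adjusted p = 0.994), with 1219, 1437 and 921 in acrylamide lungs and 1219.7, 1786 and 1758 in control lungs.

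The lowest interactions were those of Cxcr4, -1.91 ± 1.18, and Ccl22, -1.73 ± 1.26. In lung Cxcr4 had 557, 464 and 495 in acrylamide mice and 713, 536 and 866 in controls. Ccl22 had 2.62, 6.15 and 3.70 in acrylamide lungs, the first not above background, and 5.82, 6.25 and 5.03 in control lungs. Both interactions rest on liver acrylamide 30, and without it they were -0.68 and -0.39. Cxcl5 had -1.70 ± 0.74 (adjusted p = 0.994).

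**Figure D5:**
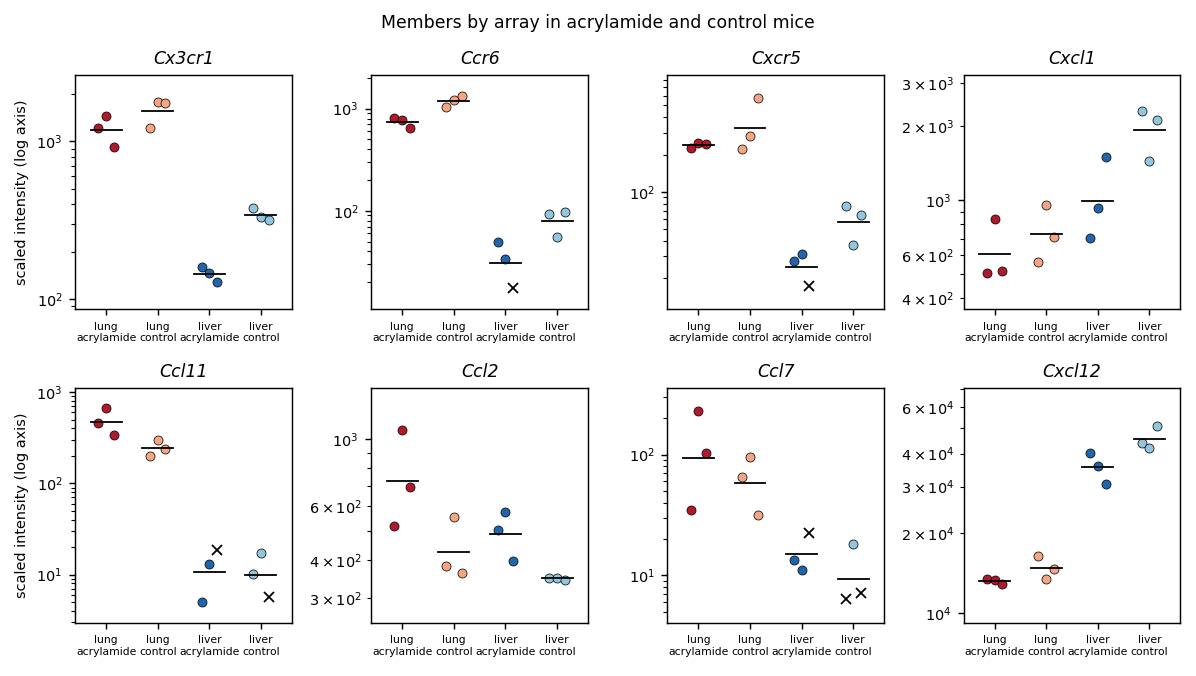
Scaled intensity (log axis, 75th percentile of each array = 1000) of 8 genes in the 4 groups, with a point per array, a cross for a spot not above background and a line at the mean of the log2 values. In liver the acrylamide points of Cx3cr1, Ccr6, Cxcr5 and Cxcl12 lie below all control points, and in lung those of Ccl11 lie above and those of Ccr6 below.

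The other chemokine-system lists did not pass in either tissue. The smallest adjusted p among the further chemokines, other receptors, signalling genes and inducers was 0.675 in liver and 0.964 in lung. Their median differences were -0.22, -0.11, -0.002 and -0.20 in liver and 0.01, -0.04, -0.09 and 0.07 in lung.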

How the data were processed

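Total RNA of lung and liver was labelled with Cy3 and hybridised to Agilent arrays, with groups taken from titles. The deposited array files hold 1 linear intensity per spot, per the file headers, for 62976 spots. Agilent Feature Extraction 10.7 is named in the submitters' processing notes. The sources used here do not say whether or how background was subtracted from the deposited intensity. The authors' series matrix holds the same intensity times 1 factor per array and served as an alternative.

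After 1319 control spots were left out, each array's 75th percentile was subtracted from its log2 intensities. A spot was above background where it passed the 95th percentile of 308 negative controls. Genes above background on at least 3 arrays of a fit were tested, each by its spot with the highest mean over all arrays. Symbols came through Entrez numbers and accessions with a RefSeq table of assembly GRCm38.p6, used for names only. In R 4.3.3, lmFit and eBayes of limma 3.58.1 fitted the comparisons, 2 groups a fit and all 4 for the interaction, and p-values were adjusted by Benjamini-Hochberg over all genes tested. The fits were tested on simulated data.

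The members and gene lists were chosen with earlier results of these data known. Values per array are given for up to 8 members in each direction of the tissue difference, up to 4 in each direction per tissue among members whose groups do not overlap, and 2 in each direction of the interaction. Pathway lists give up to 3 genes in each direction, and some are not reported here. Any further gene named was picked with its values in view. The labels do not say whether the arrays within a group stand for different mice, so the p-values cover spread among arrays that may be technical. Precision is limited by how few arrays there are. Whether replicate numbers shared across tissues in the titles pair the samples could not be settled, and the main fits do not pair them. Alternatives covered scaling, filters, spots, an added intensity of 16, weights, slide rows as read from the titles, a replicate block and leaving out each array.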

Additional observations from a re-analysis of the deposited data

Results flagged for a closer look

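Cxcr3 was higher than the control mean on all 3 acrylamide lung arrays and lower than it on all 3 acrylamide liver arrays, the one member above background on all 12 arrays for which each tissue went wholly one way and opposite to the other. The interaction, which tests the difference itself, was 0.43 ± 0.18 (limma adjusted p = 0.994), and it lay between 0.24 and 0.67 over the alternatives run, with adjusted p of 0.146 or above. It did not pass the adjusted threshold.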

How the results depend on the processing

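The number of members called between tissues in control mice was 33 to 35 with each array left out and within 1.5 times of 35 under the other alternatives run. In acrylamide mice it was 33 to 35 with each array left out and 20 when only spots above background on every array were kept, a filter that removes members dim in liver. No member passed in liver, lung or the interaction under any alternative run. Over all genes, the tissue calls in controls were 16689, against 34703 when every spot was tested, 10851 within slide row 2 and 14723 to 15711 with each array left out. In acrylamide mice they were 16105, against 32488 for every spot and 14034 to 17324 with each array left out. In liver 2 genes were called in 1 fit of all 12 arrays, and 0 to 1 with each array left out, the 1 without liver acrylamide 27. In the interaction 139 were called with array weights and 0 to 136 with each array left out, 136 without liver acrylamide 30, 8 without liver acrylamide 27 and 1 each without liver control 1 and lung acrylamide 30. The cause was not tested.

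Quantile and median scaling moved the median of all genes in the control tissue difference by 0.29 and 0.20, and in acrylamide mice by 0.32 and 0.18. Members higher and lower in control lung were then 25 and 10, and 26 and 10. Relative to the small uncalled differences, Ccl22 turned to 0.29 and 0.0195 and Cxcl13 to 0.12 and 0.17 under those scalings. Cxcl13 was also 0.20 with array weights, 0.22 when slide row was blocked, 0.21 and 0.23 within rows 1 and 2, and -0.35 to 0.53 with each array left out. With 16 added to each intensity, Cxcl2 turned to -0.17, Ccr9 to -0.10, Ccr10 to -0.59 and Xcr1 to -0.13 in controls, and Cxcl2 to -0.34 and Xcr1 to -0.25 in acrylamide mice, so the direction of members near background depends on it. Since the 16 was added before scaling, genes dim in both tissues come out lower in lung under it. Kept directions but smaller differences in controls were 2.44 for Ccl3, 2.51 for Ccl11, 1.61 for Ccl20, 4.01 for Cxcr4, 0.54 for Ccl19 and 0.36 for Xcl1, which no longer passed (adjusted p = 0.226). The mean of the spots gave 1.88 for Cxcl14 and -2.53 for Cxcl12. Ccr10 was -0.24 within row 1 and -0.20 to 0.46 with each array left out, and Ccr9 -0.23 within row 2. Within lung row 1 the acrylamide difference was -0.68 for Ccl7, -0.31 for Ccl8, -0.80 for Ccl12 and -0.11 for Ccl24. Ccr7 in lung lay between -0.69 and 0.0214 with each array left out. The interaction of Ccl22 was 0.20 within row 2.

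Within row 1 in controls Ccl19, Ccl25, Cxcl1 and Cxcl2 no longer passed, and within row 2 Ccl5 and Xcl1. Members meeting the unadjusted rule in liver, 6 in all, were 3 within row 1, 11 without liver acrylamide 30 and 3 without liver control 4. In the interaction they were 3, against 5 with array weights, 1 within row 1, 6 and 5 without liver acrylamide 27 and 30 and 5 without lung control 6.

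Whether title numbers shared by the tissues mark pairs could not be settled. Deviations of same-numbered arrays from their group means correlated at -0.02, -0.25 and -0.06 over 15796 genes. Those of arrays with other numbers in the same treatment correlated at -0.17 to 0.21. So few shared numbers cannot decide whether the samples are paired. With the title number as a replicate block, the members called were 35 in controls, 34 in acrylamide mice and 0 in the interaction, and the genes called 16550, 16284 and 0. No paired analysis was possible within a tissue because the groups compared there share no number.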
